A study of Mus musculus with 10 samples.

Results

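IGHV11-2 is the heavy-chain variable gene segment of VH11 antibodies, and the clonotypes described here are those of peritoneal cavity B-1a cells that were assigned to it alone. A clonotype was 1 combination of V, D and J genes and CDR3 amino acids, listed with the number of its reads. Of 195529 Igh clonotypes in 4 libraries, 4857 were listed with IGHV11-2 and no other V gene, and these were taken as the members without regard to their reads, J gene or CDR3. They numbered 1648 and 2384 in wild-type libraries against 266 and 559 in Igll1-/- libraries, where replicate 1 is named first here and throughout. A further 2 to 11 rows of a library named IGHV11-2 among several V genes and were left out.

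The study asked how B-1a cells arise without the surrogate light chain, of which Igll1 encodes the lambda5 subunit. All mice were on the C57BL/6 background and 6 to 8 weeks old, the controls were wild type, and the other group carried the Igll1 knockout in the whole body. Each genotype had 2 libraries, made from genomic DNA of sorted B220lo CD5+ cells, and no source used here ties a library to a single mouse or to a pool. The p-values below therefore measure the spread between these libraries, which may be partly technical. DNA of rearranged Igh loci carries no cell-surface marker and does not cover Igll1, so neither the sort nor the genotype could be checked in these tables. The libraries held 32386 to 58205 clonotypes and 180593 to 285517 reads, and the V gene counts of replicates lay further apart than sampling noise (chi-square tests). A share cannot tell fewer IGHV11-2 cells from more cells of other V genes.

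In a B cell precursor, a D segment joins a J segment and a V segment then joins DJ, and the junction encodes CDR3, the most variable loop of the heavy chain. The heavy chain is ordinarily tested first with the surrogate light chain in the pre-BCR, before a conventional light chain is made. VH11 antibodies are known in mouse B-1a cells for binding phosphatidylcholine, a membrane lipid exposed on aged cells and bacteria, and they typically pair with the light-chain segment IGKV14-126. VH12, encoded by IGHV12-3, is the other heavy chain known for this binding. In the RefSeq annotation of GRCm38.p6, Ighv11-2 lies on chromosome 12 between Ighv3-2 and Ighv14-3.

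The CDR3s that carried the comparison are printed first, in 1-letter amino acid code from the residue after the conserved cysteine to the residue before the conserved tryptophan. The first set holds the CDR3s that were found in all 4 libraries and were among the 10 largest by mean share of IGHV11-2 reads. All 7 used IGHJ1 and began with MRY, and the D gene of their largest row is named with each.
IGHD2-1, IGHJ1: MRYGNYWYFDV
IGHD2-5, IGHJ1: MRYSNYWYFDV
IGHD1-1, IGHJ1: MRYGSSYWYFDV
IGHD1-1, IGHJ1: MRYGSSWYFDV
IGHD2-1, IGHJ1: MRYDGNYWYFDV
IGHD2-5, IGHJ1: MRYNSNYWYFDV
IGHD2-5, IGHJ1: MRYDSNYWYFDV
The second set holds the other CDR3s among the 5 with the most reads in a library, and each of them owed its place to a single Igll1-/- library.
IGHD1-1, IGHJ3, Igll1-/- replicate 1: MRYYYGSRAWFAY
IGHD3-3, IGHJ1, Igll1-/- replicate 1: AGDNYGYWYFDV
IGHD1-1, IGHJ2, Igll1-/- replicate 2: MRYYYGSSYFDY
IGHD2-13, IGHJ1, Igll1-/- replicate 2: MRSGDWIYWYFDV
IGHD4-1, IGHJ2, Igll1-/- replicate 2: MRANWDVFDY
The wild-type set varied at the residues between MRY and WYFDV, whereas the other set varied in J gene and length.

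IGHV11-2 took a smaller part of the Igh repertoire in both Igll1-/- libraries than in both wild-type libraries, by clonotypes and by reads. Of wild-type clonotypes it held 2.99% (Wilson 95% interval 2.85 to 3.14) and 4.79% (4.60 to 4.98). Of Igll1-/- clonotypes it held 0.821% (0.729 to 0.926) and 0.960% (0.884 to 1.04). Among the 114 to 132 V genes found in a library it ranked 8 and 2 in wild-type against 33 and 29 in Igll1-/- cells. By reads it was the most used V gene of both wild-type libraries and ranked 35 and 28 in the Igll1-/- libraries, with 44493 and 51840 reads against 889 and 2006. The mean share of reads was 37.6-fold higher in wild-type cells, and that of clonotypes 4.36-fold. The wild-type replicates themselves lay apart by more than their counting intervals, which treat each clonotype or read as independent, cover counting error only, and are too narrow where copies of a single rearrangement are counted many times.

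**Figure D1:**
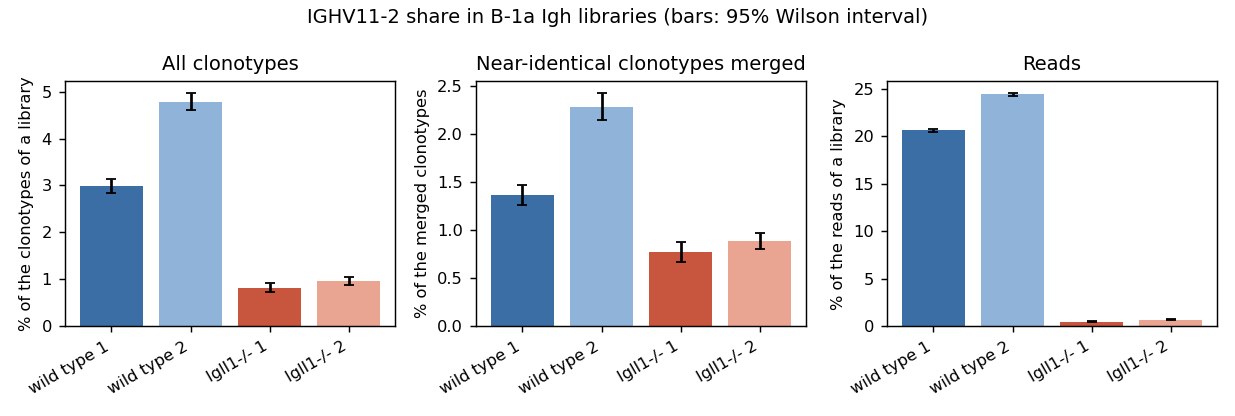
Share of IGHV11-2 in each of the 4 Igh libraries, as percent of clonotypes (left), of clonotypes after near-identical CDR3s were merged (middle) and of reads (right), with Wilson 95% confidence intervals that cover counting error only. The y axes differ in scale, and both Igll1-/- libraries lie below both wild-type libraries in each panel, at 0.492% and 0.703% against 20.6% and 24.4% of reads.

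In the fit across V genes the clonotype difference missed the threshold. The log2 fold change of IGHV11-2 (Igll1-/- over wild type) was −2.12, with a standard error of 0.32, a 95% confidence interval of −2.96 to −1.29 and an adjusted p of 0.122 (quasi-likelihood test of edgeR, Benjamini-Hochberg adjustment). None of the 91 V genes was called by edgeR (0.0%), while 8 had an unadjusted p under 0.05 and DESeq2 called 1, IGHV11-2 itself. Counted by reads, IGHV11-2 was the V gene called among 100 (1.0%), with a log2 fold change of −5.23 and a standard error of 0.58 (edgeR adjusted p = 0.0098). The clonotype value passed in the edgeR fits without wild-type replicate 1 (−2.42, adjusted p = 0.030) and without Igll1-/- replicate 2 (−2.24, adjusted p = 0.011), where the lone library of a genotype is assumed to vary like the others. It was −1.75 (adjusted p = 0.326) without wild-type replicate 2.

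Clone sizes differed in the same direction as the counts. In wild-type libraries an IGHV11-2 clonotype had 27.0 and 21.7 reads on average, against 3.19 and 3.16 for clonotypes of the other V genes. In Igll1-/- libraries the order was the opposite, with 3.34 and 3.59 reads for IGHV11-2 against 5.53 and 4.96 for the other V genes. Clonotypes with at least 100 reads numbered 24 and 40 in wild-type against 1 and 3 in Igll1-/- libraries, and only wild-type libraries held any of at least 1000 reads, 6 each. The single largest CDR3 took 30.8% and 30.9% of the IGHV11-2 reads of the wild-type libraries, and 25.8% and 10.5% of those of the Igll1-/- libraries. The effective number of CDR3s, which is the number of equally abundant CDR3s with the same Shannon entropy of reads, was 21.0 and 34.9 in wild-type against 50.7 and 93.7 in Igll1-/- libraries (exact permutation test, two-sided, p = 0.333, the smallest that 2 libraries against 2 allow). Clonotypes of 1 read raised this number where few reads were present. Without them it was 17.1 and 27.6 against 17.4 and 35.5, so that the genotypes overlapped. With near-identical clonotypes merged, as described below, it was 7.97 and 9.66 against 31.5 and 56.9. Merging keeps clonotypes of 1 read that resemble no larger one.

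Many wild-type IGHV11-2 clonotypes were close copies of a dominant one. Of them, 59.1% and 59.5% differed by at most 1 amino acid from a clonotype with the same V and J gene, the same CDR3 length and at least 10 times the reads, against 21.8% and 24.5% in Igll1-/- libraries. For the other V genes this share was 9.06% and 13.8% in wild-type against 17.3% and 18.8% in Igll1-/- libraries. Whether these copies were PCR or sequencing errors or separate rearrangements was not tested. Merged into their parents, IGHV11-2 clonotypes made up 1.36% (Wilson interval 1.26 to 1.47) and 2.28% (2.14 to 2.43) of wild-type clonotypes against 0.769% (0.672 to 0.881) and 0.882% (0.802 to 0.970) of Igll1-/- clonotypes. The genotypes did not overlap, and the log2 fold change was −1.14 with a standard error of 0.38 (edgeR adjusted p = 0.478). The means of 1.82% ± 0.65 (SD, n = 2) for wild type and 0.826% ± 0.080 (SD, n = 2) for Igll1-/- gave a ratio of 2.21 for merged clonotypes, beside 37.6 for reads.

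The J gene divided the members most clearly. IGHJ1, the J segment nearest the D segments, was used by 74.8% and 72.4% of wild-type IGHV11-2 clonotypes and by 33.5% and 31.7% of those in Igll1-/- cells. With the other V genes IGHJ1 was used by only 11.4% and 15.9% of wild-type and 12.9% and 10.9% of Igll1-/- clonotypes, so its share with IGHV11-2 was above that background in all 4 libraries. The genotype means differed by −41.1 percentage points, at 73.6% ± 1.7 (SD, n = 2) for wild type against 32.6% ± 1.3 (SD, n = 2) for Igll1-/- (exact permutation test, two-sided, p = 0.333, the smallest possible here). By reads IGHJ1 reached 98.2% and 97.7% in wild-type against 43.0% and 47.1% in Igll1-/- cells. After merging of near-identical clonotypes it was 41.7% and 35.4% against 26.0% and 20.4%. Each of these measures kept both wild-type libraries above both Igll1-/- libraries.

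**Figure D2:**
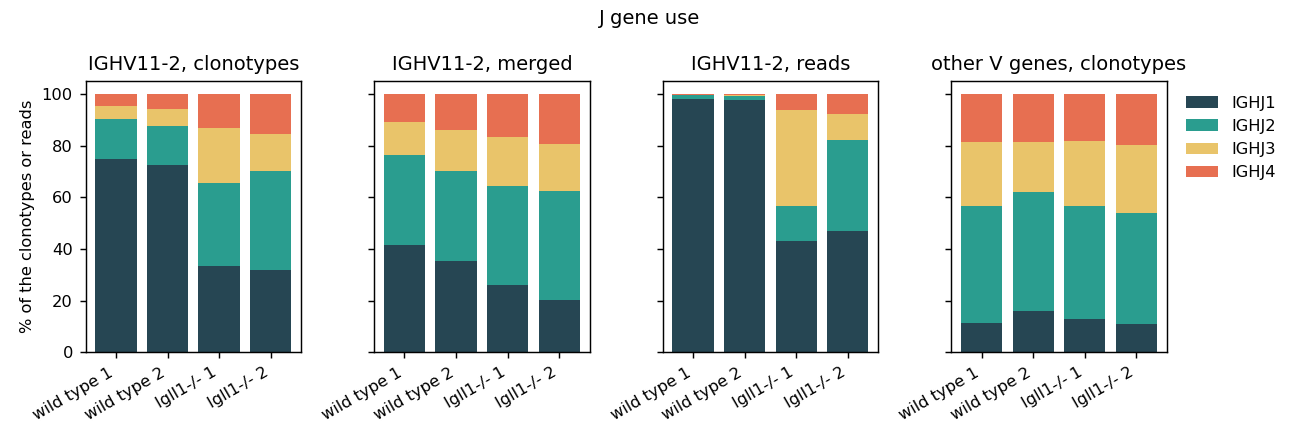
J gene use of IGHV11-2 in each library by clonotypes, by merged clonotypes and by reads, and of all other V genes by clonotypes (right), stacked to 100%. The dark IGHJ1 part is the largest in wild-type IGHV11-2 reads, at 98.2% and 97.7%, and near 11% to 16% of clonotypes with other V genes in both genotypes.

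Of 272 V-J pairs tested, the pair of IGHV11-2 with IGHJ1 was the single one called (0.368%). It fell from 2.24% and 3.47% of all wild-type clonotypes to 0.275% and 0.304% of all Igll1-/- clonotypes (−3.30 on the log2 scale, standard error 0.37, edgeR adjusted p = 0.0040). By reads it was −6.34 (standard error 0.81, edgeR adjusted p = 0.014). With near-identical clonotypes merged, an alternative that lowers the number of clonotypes counted, it was −1.86 with a standard error of 0.40 and the call was lost (edgeR adjusted p = 0.206). Leaving out a wild-type library also lost the call, with −3.58 for replicate 1 and −2.95 for replicate 2 (edgeR adjusted p = 0.133 and 0.181).

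IGHV11-2 joined to the other J genes differed less between genotypes. With IGHJ2, the J gene most used by the other V genes, it made up 0.464% and 0.733% of wild-type and 0.262% and 0.369% of Igll1-/- clonotypes, with a log2 fold change of −0.92 and a standard error of 0.43 (edgeR adjusted p = 0.573). With IGHJ3 the log2 fold change was −0.55 with a standard error of 0.53 (edgeR adjusted p = 0.781), and its sign turned without wild-type replicate 2 (0.020) and by reads (0.65), where Igll1-/- replicate 1 held a single IGHJ3 clonotype of 229 reads. With IGHJ4 it was −0.69 with a standard error of 0.56 (edgeR adjusted p = 0.749). All rearrangements to IGHJ2, IGHJ3 and IGHJ4 together made up 0.753% and 1.32% of wild-type and 0.546% and 0.656% of Igll1-/- clonotypes. The confidence intervals of these 3 pairs ran from −1.96 to 0.67 on the log2 scale, so a change of several-fold downwards was not excluded by them. In a direct comparison, added after the J gene counts were seen, the log2 fold change with IGHJ1 was lower than that with the other J genes (difference −2.53, standard error 0.54, edgeR adjusted p = 0.00052), and IGHV11-2 was the only V gene of 91 called (1.1%). The median of that difference over all V genes was −0.33. It missed the threshold with near-identical clonotypes merged (−1.07, edgeR adjusted p = 0.900) and without either Igll1-/- library (−2.59 and −2.47, edgeR adjusted p = 0.282 and 0.422).

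**Figure D3:**
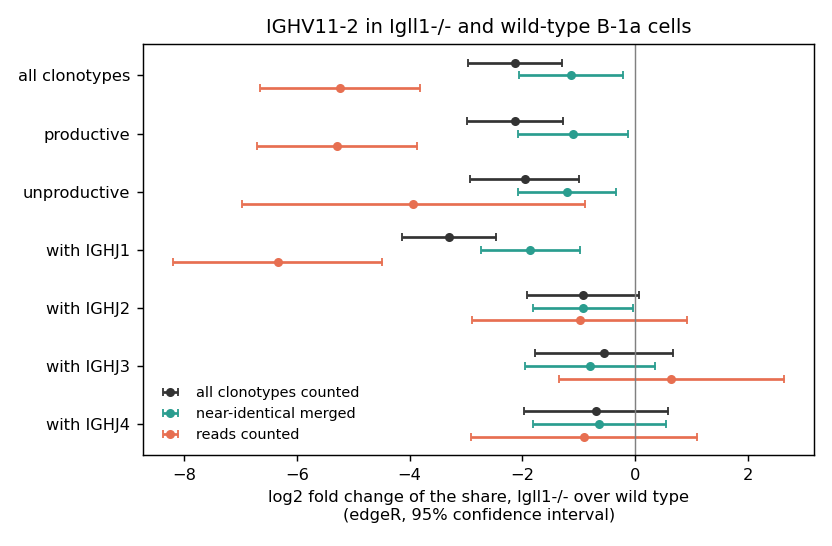
Log2 fold change of the IGHV11-2 share, Igll1-/- over wild type, with its 95% confidence interval from edgeR, for all, productive and unproductive clonotypes and for each J gene, counted by clonotypes, by merged clonotypes and by reads. The IGHJ1 values of −3.30, −1.86 and −6.34 lie left of those with IGHJ2, IGHJ3 and IGHJ4 under the same counting.

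CDR3 length was concentrated at 11 and 12 amino acids in wild-type cells, and less so in Igll1-/- cells and after near-identical clonotypes were merged. The most frequent length over both wild-type libraries was 11 amino acids, used by 38.7% and 40.1% of wild-type and 16.5% and 17.7% of Igll1-/- clonotypes (difference −22.2 percentage points, exact permutation test, two-sided, p = 0.333). A length of 12 was used by 36.8% and 35.0% against 22.9% and 21.3%. Merged, length 11 took 21.5% and 20.2% against 12.02% and 13.5% (difference −8.09 points), and at length 12 the genotypes overlapped, with 25.5% and 20.3% against 22.6% and 18.5%. Both lengths together with IGHJ1 and a productive reading frame described 94.8% and 96.2% of wild-type IGHV11-2 reads, and 35.6% and 27.9% of Igll1-/- reads. Before merging, both Igll1-/- libraries lay above both wild-type libraries at most of the other lengths, among them 10 and 13. They had 14.3% and 13.4% against 5.10% and 4.82% at 10 amino acids, and 16.9% and 10.7% against 4.13% and 3.27% at 13. Merged, this order remained at 10 (18.3% and 15.2% against 11.6% and 11.9%) and at 13 (11.1% and 9.48% against 7.27% and 7.45%). At length 6 the merged shares overlapped (3.85% and 4.27% against 3.26% and 5.07%), as they did at 5, 7 and 16. At 17 the merged order was reversed (0.962% and 0.948% against 1.34% and 1.04%). Without merging, IGHJ1 clonotypes had a length of 11 or 12 in 93.3% and 93.2% of wild-type cases and in 76.4% and 59.3% of Igll1-/- cases. IGHJ2 clonotypes had it in 21.1% and 28.8% against 23.5% and 27.4%, where the genotypes overlapped.

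**Figure D4:**
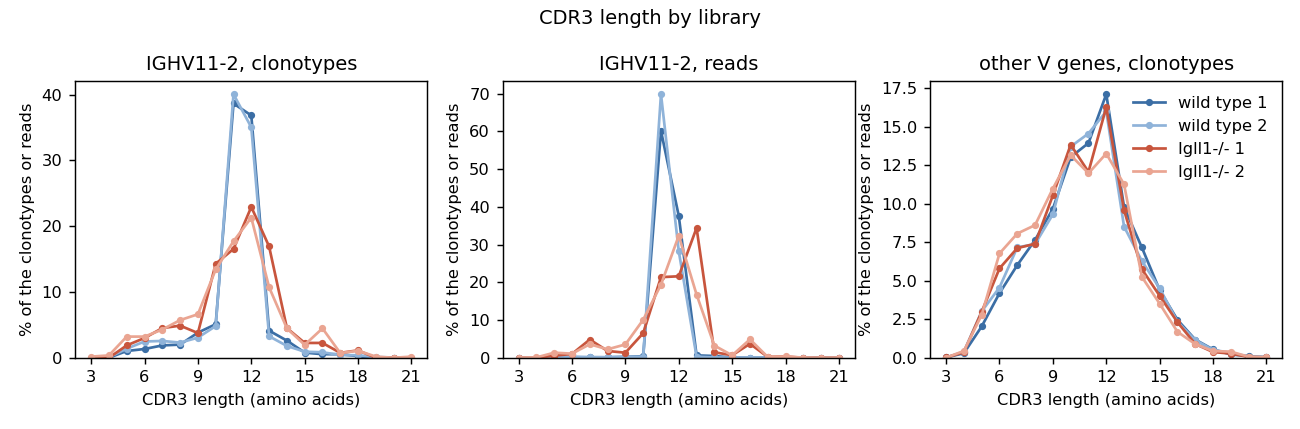
Percent of IGHV11-2 clonotypes (left), of IGHV11-2 reads (middle) and of clonotypes with other V genes (right) at each CDR3 length in amino acids, 1 line per library. Wild-type IGHV11-2 peaks at 11 and 12, with 60.1% and 69.9% of reads at 11, while the Igll1-/- lines spread over 10 to 13 and the other V genes have a like shape in all libraries.

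The D genes followed the dominant CDR3s. IGHD2-1, found with the residues GNY, was assigned to 16.0% and 17.5% of wild-type and 7.52% and 9.12% of Igll1-/- IGHV11-2 clonotypes, against 6.98% to 8.49% with the other V genes. IGHD2-5, found with SNY, was assigned to 14.9% and 14.4% against 6.02% and 9.48%. With the other V genes IGHD2-5 took 6.17% to 6.98%, so both D genes lay above that background in wild-type libraries, and by less in Igll1-/- replicate 2, but not in Igll1-/- replicate 1. IGHD1-1, the D gene of GSSY and of the largest Igll1-/- CDR3s, took the greatest share of clonotypes, with 33.2% and 24.0% in wild-type against 44.0% and 37.0% in Igll1-/- libraries. With the other V genes it took 29.1% to 31.1%. By wild-type reads IGHD2-1 was ahead, with 35.1% and 42.9% against 32.05% and 17.5% for IGHD1-1. Merged, IGHD2-1 took 11.6% and 10.5% of wild-type against 4.81% and 8.53% of Igll1-/- clonotypes. Merged IGHD2-5 took 10.5% and 8.90% against 7.21% and 8.53%. The remaining D genes with at least 5% of a library, IGHD2-3, IGHD2-4 and IGHD4-1, lay between 2.77% and 10.2% of unmerged clonotypes in all libraries. These D gene shares were not tested between genotypes, and a D gene is assigned from few bases.

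CDR3s that began with methionine and arginine made up 74.9% and 57.3% of wild-type and 56.8% and 57.1% of Igll1-/- IGHV11-2 clonotypes, and at most 0.771% of clonotypes with other V genes. By reads they were 96.6% and 91.1% in wild-type against 77.3% and 78.4% in Igll1-/- libraries. Each of the 4 libraries thus held this start mainly with IGHV11-2. CDR3s that began with AGD, as the largest IGHV12-3 CDR3s did, made up 0.142% and 0.482% of wild-type but 4.39% and 2.79% of Igll1-/- IGHV11-2 reads. These were 63 and 250 against 39 and 56 reads, and by clonotypes the genotypes overlapped, at 1.76% and 2.81% against 2.26% and 1.43%. AGDNYGYWYFDV had 30 reads with IGHV11-2 in Igll1-/- replicate 1, in which it had 22381 reads with IGHV12-3. Whether such rows were misassigned copies was not tested.

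The dominant wild-type CDR3s were far smaller in Igll1-/- libraries. By median this was also so for the 10 largest wild-type CDR3s of the other V genes, as given further below. MRYGNYWYFDV had 13691 and 15993 reads in wild-type against 66 and 129 reads in Igll1-/- libraries, or 30.8% and 30.9% against 7.42% and 6.43% of IGHV11-2 reads. MRYSNYWYFDV had 5464 and 7961 against 41 and 59 reads, and MRYGSSYWYFDV 8858 and 2986 against 58 and 135. These were the 3 largest CDR3s of both wild-type libraries, and they still ranked 2, 4 and 3 in Igll1-/- replicate 1 and 4, 7 and 3 in replicate 2. As a share of all reads their means were 170-fold, 145-fold and 69.3-fold higher in wild-type cells. The log2 fold changes were −7.40, −7.17 and −6.11 with standard errors of 1.77, 1.86 and 1.85 (edgeR adjusted p = 0.036, 0.042 and 0.047 over all clonotypes of all V genes). All 3 calls were lost without wild-type replicate 1 or 2 (edgeR adjusted p = 0.582 and 0.978) and with TMM factors (0.139 to 0.196), those of MRYSNYWYFDV and MRYGSSYWYFDV also with a replicate block (both 0.125), and that of MRYGSSYWYFDV without Igll1-/- replicate 1 (0.068). The fold of MRYGSSYWYFDV was 35.4 for wild-type replicate 2 alone, and it leaves out 359 reads of this CDR3 that Igll1-/- replicate 2 listed with IGHV11-1.

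The other 4 CDR3s of the first set were smaller, and 3 of them (all but MRYDSNYWYFDV) differed more between wild-type replicates than the 3 largest did. MRYDGNYWYFDV had 30 and 2151 reads in wild-type against 4 and 5 in Igll1-/- libraries, and MRYGSSWYFDV had 2232 and 505 against 20 and 13. MRYNSNYWYFDV had 389 and 1796 against 14 and 11 reads, and MRYDSNYWYFDV had 1117 and 738 against 12 and 43. In each case both Igll1-/- libraries lay below both wild-type libraries, while none of the 4 passed the threshold (edgeR adjusted p from 0.051 to 0.061). Together the 7 CDR3s held 71.4% and 62.0% of wild-type against 24.2% and 19.7% of Igll1-/- IGHV11-2 reads.

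Of 463 clonotypes of all V genes with at least 10 reads in 2 libraries, 161 differed between genotypes by reads (34.8% by the edgeR adjusted p), with 135 lower in Igll1-/- cells (29.2%). IGHV11-2 accounted for 99 of those tested, and 69 of these were called (69.7%), all lower in Igll1-/- cells, against 92 of 364 with other V genes (25.3%). The 364 included 72 that passed the filter through both Igll1-/- libraries only and 117 through 1 library of each genotype. Among those that passed through both wild-type libraries only, 66 of 92 were called with IGHV11-2 and 64 of 156 with other V genes. All of these calls were lower in Igll1-/- cells. However, 92 of the 99 passed the filter through the wild-type libraries alone and 44 had no read in either Igll1-/- library, so the counts describe where IGHV11-2 clones were large and give no independent support for the direction. The 7 that passed in every library were ARHYYGSSYYFDY with IGHJ2, which was not called, and the first set above without MRYDGNYWYFDV, of which the 3 largest were called. The number called was 0 without wild-type replicate 1 and 0 without wild-type replicate 2, where most members no longer passed the filter, 60 and 75 without an Igll1-/- library, and 96 with DESeq2. It was 1 with the replicate number as a block, 24 with at least 50 reads in 2 libraries and 55 with TMM factors.

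The second set of CDR3s, which includes the largest of each Igll1-/- library, was found in numbers in a single library each. MRYYYGSRAWFAY had 229 reads in Igll1-/- replicate 1, 0 in replicate 2 and 5 and 1 in wild-type libraries. MRYYYGSSYFDY had 0 and 211 reads in Igll1-/- and 4 and 1 in wild-type libraries. MRSGDWIYWYFDV had 0 and 204 against 1 and 1 reads, and MRANWDVFDY had 87 reads in Igll1-/- replicate 2 and none elsewhere, which in the other libraries allows up to 3 reads. No CDR3 of this set was therefore shared between the Igll1-/- replicates. Except for MRSGDWIYWYFDV and AGDNYGYWYFDV they used IGHJ2 or IGHJ3.

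**Figure D5:**
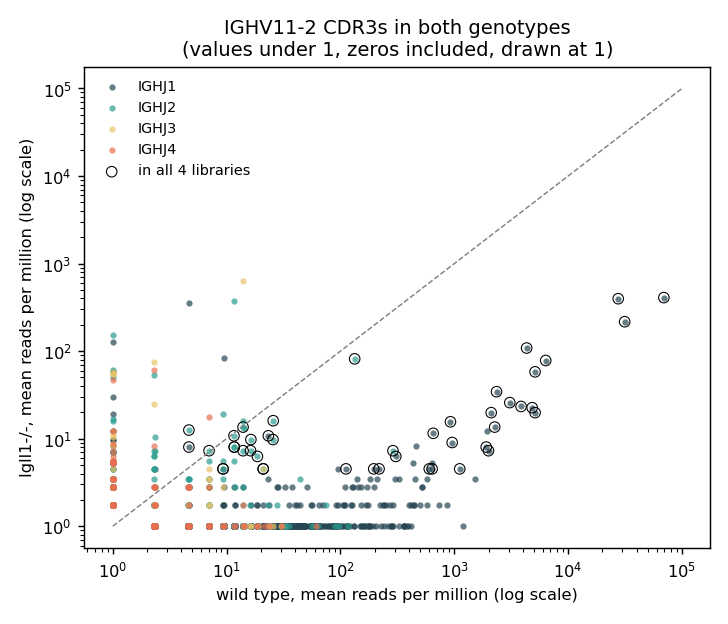
Each point is an IGHV11-2 CDR3 with its J gene, at its mean RPM, the reads scaled to a common library total, in wild-type (x) and Igll1-/- (y) libraries on log axes, with values under 1 drawn at 1 and CDR3s of all 4 libraries circled. The most abundant wild-type CDR3s, all IGHJ1, lie far below the dashed line of equality. The top wild-type CDR3, at 69290 against 409, is also among the highest by Igll1-/- mean. The largest CDR3 of each Igll1-/- library lies above the line, at 634 and 369.5 against 13.9 and 11.6 in wild type.

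Sharing was counted over distinct CDR3s with their J gene, of which there were 1587 and 2245 in wild-type against 258 and 516 in Igll1-/- libraries. The wild-type replicates shared 573, which were 36.1% and 25.5% of their CDR3s and held 96.2% and 91.9% of their reads. The Igll1-/- replicates shared 65, or 25.2% and 12.6% of their CDR3s, with 37.4% and 28.7% of their reads. Most reads of each wild-type library thus belonged to CDR3s that the other also held, and most reads of each Igll1-/- library to CDR3s that the other lacked. The Igll1-/- libraries had 889 and 2006 IGHV11-2 reads against 44493 and 51840, and fewer reads leave fewer CDR3s to be found in both. How far depth shaped this contrast was not tested, and the share by reads was not computed for the other V genes. A shared CDR3 could be large in a single wild-type library. The 10 largest of wild-type replicate 1 had 0.612% to 146% as many reads in replicate 2 (median 45.0%). Those of replicate 2 had 0.627% to 297% as many in replicate 1 (median 8.27%). For the other V genes the shares, without merging, were 14.3% and 17.8% of CDR3s between wild-type and 17.5% and 9.80% between Igll1-/- replicates. With near-identical clonotypes merged, the wild-type replicates shared 139 IGHV11-2 CDR3s, or 20.8% and 15.4%. The Igll1-/- replicates then shared 49, or 24.3% and 12.7%, so that the genotypes overlapped. Across genotypes and without merging, 27.3% to 36.4% of the CDR3s of an Igll1-/- library were found in a wild-type library. Of those of a wild-type library, 3.92% to 9.39% were found in an Igll1-/- library. For the other V genes these shares were 9.41% to 24.0% and 8.45% to 18.4%.

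In all 4 libraries 45 CDR3s were found, 28 with IGHJ1, 16 with IGHJ2 and 1 with IGHJ3. They held 83.0% and 75.8% of wild-type and 34.8% and 25.6% of Igll1-/- IGHV11-2 reads. In the mean of a genotype, the 28 with IGHJ1 had a median of 1.04% as many RPM in Igll1-/- as in wild-type libraries, and 1 of them was higher in Igll1-/- libraries. The 17 with another J gene had a median of 59.8%, and 2 of them were higher, but the largest had only 289 RPM in wild-type cells. A CDR3 needed a read in each library to be counted here, so those rare in wild-type cells could not show a low ratio. Of the 28 with IGHJ1, 25 had at least 100 RPM in wild-type cells, so the medians compare CDR3s of unlike abundance. The ratio ran from 0.365% to 172% with IGHJ1. With another J gene it ran from 2.52%, at the most abundant of them, to 269%. CDR3s found only in Igll1-/- libraries numbered 481, which was 67.8% of the 709 Igll1-/- CDR3s, and 8 of these were in both replicates. CDR3s found only in wild-type libraries numbered 3031, or 93.0% of the wild-type CDR3s, and 431 of these were in both. For the other V genes, CDR3s found in a single genotype were 79.5% of the Igll1-/- and 82.0% of the wild-type CDR3s.

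Low numbers of reads of a large CDR3 in another library were not particular to IGHV11-2. The 10 largest IGHV11-2 CDR3s of a wild-type library had a median of 0.297% to 0.867% as many reads in an Igll1-/- library. For the 10 largest wild-type CDR3s of the other V genes this median was 0.469% to 1.72%. Single ones of these reached up to 740%, against at most 4.52% with IGHV11-2. The 10 largest CDR3s of the other V genes in an Igll1-/- library had a median of 0.172% to 1.19% as many reads in a wild-type library, and of 0.284% and 0.409% in the other Igll1-/- library. Whether the IGHJ1 reads that Igll1-/- libraries shared with wild-type libraries came from Igll1-/- cells or were carried over between samples sequenced together was not tested. Carryover was also not tested for large wild-type CDR3s with few reads in the other wild-type library. The libraries were pooled for sequencing, and the tables hold no molecular barcode.

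Productive and unproductive IGHV11-2 clonotypes were both compared between genotypes. Unproductive rearrangements, out of frame or with a stop codon, encode no heavy chain of their own. The log2 fold change of the productive clonotypes was −2.13 with a standard error of 0.34 (edgeR adjusted p = 0.120, 0.0% of 91 V genes called). Unproductive clonotypes numbered 242 and 241 in wild-type against 27 and 64 in Igll1-/- libraries, and their share of all unproductive clonotypes fell by 1.96 on the log2 scale with a standard error of 0.49 (edgeR adjusted p = 0.0056, 5.36% of 56 V genes called). The difference between both log2 fold changes was −0.12, with a 95% confidence interval of −0.69 to 0.46 (edgeR adjusted p = 0.910, 1.08% of 93 V genes called). That difference was −0.53 with at least 2 reads per clonotype and −1.47 by reads (95% confidence interval −4.79 to 1.85). IGHJ1 was used by 157 and 160 of the wild-type and by 6 and 13 of the Igll1-/- unproductive clonotypes. Of the wild-type unproductive clonotypes 46.7% and 51.4% were near-identical to one with at least 10 times the reads, against 11.1% and 28.1% in Igll1-/- libraries. Whether unproductive clonotypes were altered copies of productive ones was not tested. Merged, the unproductive value was −1.21 and the call was lost (edgeR adjusted p = 0.137), as it was without Igll1-/- replicate 1 (−1.79, adjusted p = 0.419) and without Igll1-/- replicate 2 (−2.18, adjusted p = 0.301).

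The productive share of IGHV11-2 clonotypes was 85.3% and 89.9% in wild-type against 89.8% and 88.6% in Igll1-/- libraries (exact permutation test, two-sided, p = 1), below the 92.3% to 93.6% of the other V genes in all 4. Without wild-type replicate 1 the difference by clonotypes turned from 1.60 to −0.69 percentage points. By reads the productive share was 96.8% and 98.5% against 92.1% and 92.7%. V regions identical to germline over the sequenced part made up 98.7% and 97.9% of wild-type and 81.3% and 84.2% of Igll1-/- IGHV11-2 reads. With the other V genes this was 61.1% to 67.0%. The sequenced part begins in framework region 3, so identity was measured over a short stretch of the V gene. IGHV11-2 stood above the other V genes in both genotypes, and more so in wild-type libraries.

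IGHV11-1, the other member of the family, was rare, with 0.192% and 0.147% of wild-type and 0.229% and 0.361% of Igll1-/- clonotypes, and both Igll1-/- libraries lay above both wild-type libraries. By reads the genotypes overlapped, with 0.0787% and 0.101% against 0.0831% and 0.269%. In Igll1-/- replicate 2 the CDR3 MRYGSSYWYFDV had 359 reads listed with IGHV11-1, more than its 135 with IGHV11-2, and 418 reads with V genes other than IGHV11-2 in all. In the other libraries V genes other than IGHV11-2 accounted for 0.828% to 3.46% of the reads of this CDR3. How these reads divide between both genes is therefore uncertain for this library. IGHV12-3 held 16.5% and 7.42% of wild-type and 21.1% and 12.1% of Igll1-/- reads, where the genotypes overlapped. By clonotypes it held 5.09% and 4.62% against 4.48% and 4.32%, so both Igll1-/- libraries lay below both wild-type libraries. The ratio of these means was 1.10, beside 4.36 for IGHV11-2. IGHV12-3 used IGHJ1 in 35.9% and 38.4% of wild-type and 42.7% and 19.8% of Igll1-/- clonotypes. The V genes whose pattern over the 4 libraries lay nearest to that of IGHV11-2 were IGHV8-5, IGHV8-11 and IGHV1-62-2, at Euclidean distances of 0.646, 0.764 and 0.873 in centred log2 share against a median of 2.33 over the tested genes. Their highest share in any library was 0.145% of clonotypes.

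The light-chain partner was measured in separate libraries of the same cell populations. IGKV14-126 held 9.02% and 10.1% of Igk reads in wild-type B-1a cells, and 0.250% and 0.265% in Igll1-/- B-1a cells. By clonotypes it held 4.89% and 5.28% against 0.684% and 0.735%. Wild-type B-2 cells, the conventional B cells, held 1.17% and 0.951% of reads. Heavy and light chains of a cell were not linked in these data.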

How the data were processed

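Igh rearrangements were amplified by the authors from genomic DNA with V primers in framework region 3 and J primers, size-selected at 120 to 280 bp, sequenced on an Illumina HiSeq in pooled runs without molecular barcodes and assigned with IMGT/HighV-QUEST. Its version and the genome build are not given in the sources used here. Primer efficiency can differ between V genes and so shape their levels. The authors deposited 1 table per library with the count of reads per clonotype, not normalized, and the percent identity of each to its germline V gene.

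Clonotypes were counted once on their V gene, on V-J pairs, and by functionality. Features with at least 10 clonotypes (for CDR3s, 10 reads) in at least 2 libraries were compared by edgeR 4.0.16 in R 4.3.3 (quasi-likelihood test, all clonotypes or reads as library size, Benjamini-Hochberg threshold 0.05), with DESeq2 1.42.0, TMM factors, reads, read minimums of 2 and 10, merging, no filter and left-out libraries as alternatives. Scripts were tested on simulated data. Single values used the exact permutation test in Python (scipy). Standard errors of edgeR were derived from its F statistic. A count of 3 clonotypes corresponds to 0.00515% to 0.00926% of a library. The members and lists were chosen with earlier results of these data known. Named CDR3s were the 5 largest per library and those in all 4 libraries among the 10 largest by mean share. V genes named beside IGHV11-2 were the other phosphatidylcholine-binding V gene, the other family member and the 3 nearest in pattern, and D genes needed 5% of a library. Igk tables were used for IGKV14-126 alone.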

Additional observations from a re-analysis of the deposited data

Results flagged for a closer look

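The genotype difference of IGHV11-2 depended on the J gene, a comparison of effects within the same libraries that was added after the data were seen. The log2 fold change with IGHJ1 was lower than with IGHJ2, IGHJ3 and IGHJ4 together (difference −2.53, edgeR adjusted p = 0.00052 over 91 V genes), and the IGHJ1 share was lower in 2 of 2 Igll1-/- libraries than in either wild-type library. Over its alternatives the adjusted p ran from 0.00015 to 0.900.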

How the results depend on the processing

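The IGHV11-2 share of clonotypes kept its direction under all 14 alternatives and passed the threshold in 5: DESeq2 (−2.12), reads (−5.23), at least 10 reads per clonotype (−3.30) and 2 of the 4 fits without a library, which ranged from −2.42 to −1.75. The count of V genes called, 0, became 1 with DESeq2, 1 by reads, 3 with at least 10 reads and 0 to 6 without a library. Productive clonotypes passed by reads (−5.29), with the replicate block (−2.09, edgeR adjusted p = 0.032) and without either Igll1-/- library (range without a library −2.45 to −1.71). Unproductive clonotypes missed it when merged (−1.21), by reads (−3.94), with the replicate block (−1.98) and without either Igll1-/- library (range −2.18 to −1.79). The productive minus unproductive difference turned to 0.17 when merged and ranged from −0.36 to 0.11 without a library. IGHV11-2 with IGHJ1 missed the threshold when merged (−1.86) and without either wild-type library (range −3.58 to −2.95), and the V-J pairs called numbered 0 when merged and 0 to 8 without a library. With IGHJ3 the value turned to 0.65 by reads and ranged from −0.95 to 0.020 without a library. IGHV11-2 clonotypes called by reads, 69, were 24 with at least 50 reads in 2 libraries, 1 with the replicate block and 0 to 75 without a library.

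The IGHJ1 share difference was −47.6 percentage points with at least 2 reads, −15.4 when merged, −52.9 by reads and −42.3 to −39.9 without a library. That of length 11 was −25.3, −8.09 and −44.6, and −22.9 to −21.5 without a library. That of the productive share turned to −1.28 with at least 2 reads and −5.21 by reads, and ranged from −0.69 to 3.88. The difference in effective number was 4.13 with at least 2 reads, 35.4 when merged and 22.8 to 65.8 without a library. The cause of these changes was not tested, except that merging and read minimums count fewer clonotypes.

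Same-numbered libraries correlated at r = 0.324 in their deviations across 91 V genes, but with 2 pairs and no shared source in the labels the numbers were not taken to pair them. Whether the numbers follow the 2 independent experiments of the study is not known. If they do, the fits with a replicate block would apply. The replicate block gave −2.09 for all clonotypes (edgeR adjusted p = 0.065), −5.25 by reads (edgeR adjusted p = 0.062, an alternative chosen after seeing the data, as were those of IGHJ2 to IGHJ4 and of the comparison between J genes) and −3.27 with IGHJ1 (edgeR adjusted p = 2.3e-09). With 2 libraries a genotype, the 889 and 2006 Igll1-/- reads limit what can be said of single CDR3s there.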

Other observations

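Beyond the largest CDR3s, IGHV11-2 clones of 1 wild-type library were at times nearly absent from the other. ISYDPSYWYFDV had 1 and 511 reads in the wild-type libraries, TIYGSSYWYFDV 154 and 1, and MRYGYGYWYFDV 125 and 1, all with IGHJ1 and without a read in either Igll1-/- library. The CDR3 ARHYYGSSYYFDY with IGHJ2, which lacks the MRY start, had 18 and 39 reads in wild-type against 20 and 15 in Igll1-/- libraries. These 4 were chosen after their values were seen.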
